A study of Mus musculus with 6 samples.

Results

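The 40 genes described here act in cell division and DNA replication. They are 25 mitosis genes and 15 S phase genes, taken as a list whose rule uses no level measured in these cells, although it was drawn up with earlier results of these data known, and all 40 were among the 32287 features of the gene matrix. The cells came from inguinal lymph nodes of Cd169Cre/+.Tdtomato fl/fl (CD169Tom) mice, in which any cell that ever switched on Siglec1, the gene of the macrophage receptor CD169, stays marked by tdTomato together with its progeny, so the label records a history and not a present state. Tomato-positive cells with high CD11b were sorted from 2 unimmunized mice and from 2 mice at day 9 after immunization with hen egg lysozyme (HEL). Each mouse had its own hashtag antibody, all 4 were pooled over 2 droplet captures, and transcripts were counted by unique molecular identifier (UMI). All mice were on a C57BL/6J background, carried the same Cre and reporter alleles and were over 6 weeks old. The study used both sexes, but no source used here gives the sex of these 4, nor the form of HEL and the adjuvant they received.

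A dividing cell first copies its DNA and then separates it. In S phase the MCM helicase (Mcm2 to Mcm7, loaded with the help of Cdc6 and activated with Cdc45) opens the double helix, PCNA clamps the polymerases to it, and ribonucleotide reductase (Rrm1, Rrm2), thymidylate synthase (Tyms) and thymidine kinase (Tk1) supply the building blocks. In mitosis the kinase CDK1 with cyclins A2, B1 and B2 drives entry, centromere and spindle proteins align the chromosomes, and CDC20 and UBE2C, which work with the anaphase-promoting complex, start their separation. In lymph nodes such genes are best known from germinal centers, where B cells divide rapidly.

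Promoters of genes that carry the results are shown because they were searched for short motifs known from cell cycle promoters. RefSeq promoter windows (GRCm38.p6, 250 bases before to 50 after the start of the gene) were at hand for 35 of the 40 genes, 21 of mitosis and 14 of S phase. The others were Aurkb, Ccna2, Kif20a, Mcm4 and Tpx2. Searched on both strands, TTTGAA, the core of the cell cycle genes homology region, was in 16 of 21 mitosis promoters (76.2%) and in 2 of 14 S phase promoters (14.3%), against 18.1% of all 27025 promoters of this length. Wholly before the start it was in 7 of 21 (33.3%) and 2 of 14, against 16.3% of all promoters, so most mitosis promoters with a match held it across or after the start, beyond the bases printed here. The E2F-type words TTTCCCGC or TTTGGCGC were in 0 of 21 mitosis promoters and in 6 of 14 S phase promoters (42.9%; Mcm3, Mcm5, Mcm6, Mcm7, Cdc6 and Hells), against 1.63% of all promoters. CCAAT, the word that NF-Y reads, was in 19 of 21 and 10 of 14 (90.5% and 71.4%), against 37.9% of all promoters. No word overlaps another in its letters. Below are the 150 bases before the start of 4 mitosis and 4 S phase genes, 5′ to 3′ along the gene. Capitals mark TTTGAA in the mitosis genes and the E2F-type words in the S phase genes, and a match on the other strand reads TTCAAA or GCGGGAAA. Pcna, the gene of the list detected in the most cells, is shown as a promoter without such a word.
Cdk1, chr10:69352913-69353062, minus strand: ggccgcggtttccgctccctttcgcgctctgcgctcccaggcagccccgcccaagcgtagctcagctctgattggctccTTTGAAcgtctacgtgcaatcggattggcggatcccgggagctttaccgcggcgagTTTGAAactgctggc
Cdc20, chr4:118437344-118437493, minus strand: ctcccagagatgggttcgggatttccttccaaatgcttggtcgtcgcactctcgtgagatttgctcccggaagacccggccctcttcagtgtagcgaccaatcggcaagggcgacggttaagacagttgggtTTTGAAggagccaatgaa
Ube2c, chr2:164769779-164769928, plus strand: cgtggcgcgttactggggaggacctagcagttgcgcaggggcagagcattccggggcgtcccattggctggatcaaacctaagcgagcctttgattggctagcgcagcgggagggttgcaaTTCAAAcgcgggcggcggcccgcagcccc
Top2a, chr11:99024190-99024339, minus strand: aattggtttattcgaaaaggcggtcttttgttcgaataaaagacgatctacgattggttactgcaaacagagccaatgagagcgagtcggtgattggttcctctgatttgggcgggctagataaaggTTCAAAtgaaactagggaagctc
Mcm6, chr1:128359706-128359855, minus strand: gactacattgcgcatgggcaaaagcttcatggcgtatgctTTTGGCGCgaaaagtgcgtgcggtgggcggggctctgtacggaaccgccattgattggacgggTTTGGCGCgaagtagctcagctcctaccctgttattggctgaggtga
Hells, chr19:38930840-38930989, plus strand: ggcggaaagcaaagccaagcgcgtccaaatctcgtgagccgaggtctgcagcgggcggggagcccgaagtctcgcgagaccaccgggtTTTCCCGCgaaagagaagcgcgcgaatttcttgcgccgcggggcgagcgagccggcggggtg
Cdc6, chr11:98908001-98908150, plus strand: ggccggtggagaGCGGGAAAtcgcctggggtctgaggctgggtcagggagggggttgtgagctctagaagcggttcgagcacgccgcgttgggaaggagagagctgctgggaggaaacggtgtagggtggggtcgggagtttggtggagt
Pcna, chr2:132253181-132253330, minus strand: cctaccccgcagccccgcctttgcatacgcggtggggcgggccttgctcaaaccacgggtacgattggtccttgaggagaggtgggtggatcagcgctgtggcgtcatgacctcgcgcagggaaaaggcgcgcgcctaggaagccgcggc
The TTTGAA match nearest to the start began 15 bases before it in Cdk1, 18 in Cdc20, 23 in Top2a and 29 in Ube2c, and Cdk1 held another 71 bases before. Mcm6 held TTTGGCGC at 110 and 47 bases before its start. A match describes these letters only and is no evidence of a bound factor.

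After removal of barcodes shared by both captures, of cells above 25% mitochondrial UMIs and of cells without a clear hashtag, 12139 cells were left. In the order unimmunized mouse 1, unimmunized mouse 2, immunized mouse 1 and immunized mouse 2, which holds for all lists of 4 values here, the mice gave 2828, 537, 4052 and 4722 cells, with medians of 5877, 6280, 9674 and 12727.5 UMIs. Because a deeper cell shows more of its genes, detection was compared after each cell had been thinned at random to 2000 UMIs, which left out 491 shallower cells and kept 11648. Cell types were assigned by markers that include none of the 40 genes, and 56.8% of the cells passed a gate. Confidence intervals of shares and the limits given for a count of 0 cover counting error only.

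Cells that held 5 or more of the 40 genes were rare. They were 117 of 11648 thinned cells, 1.00% (exact 95% interval 0.831% to 1.20%), and without thinning 816 of 12139 cells, 6.72%. Of the thinned cells 7627 held none of the genes, 3070 held 1, 671 held 2 and 127 held 3. Just outside the limit stood 36 cells with 4 genes and just inside it 29 cells with 5, and the highest cell held 16. The 117 cells had a median of 7 of the genes. Genes of both groups were in 94 of them, while 9 held no mitosis gene and 14 no S phase gene. Their median depth was lower than that of the other cells (8475 against 10214 UMIs), their median mitochondrial share was 3.92% against 3.54%, and 9 of them held 3 or more markers of a second lineage.

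Each of the 40 genes was more frequent in cells that held 5 or more of the other 39 than in the remaining cells. Hmmr, a spindle-associated receptor, had the largest ratio, with 12 of 116 such cells (10.3%) against 3 of 11532 (0.0260%), a ratio of 398. Ccnb2 (149), Ccna2 (117), Rrm2 (110), Cdc45 (107), Nusap1 (104) and the spindle motor gene Kif11 (99.4) followed. Among the remaining cells each of these genes was detected in at most 0.277% at 2000 UMIs, though these cells are so many that Nusap1 and Kif11 were detected in as many of them (16 and 12) as in the set. By share of the set, Pcna (38.5%), Top2a (37.0%), Birc5 (36.1%), Ube2c (33.3%) and Rrm2 (30.6%) came first.

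At the other end stood genes with many UMIs elsewhere. Bub1b, of the spindle checkpoint, was in 8.85% of the set and in 4.01% of the other cells, a ratio of 2.20. Pcna was in 11.3% of the other cells, a ratio of 3.40. The helicase genes had ratios between 6.74 (Mcm4) and 15 (Mcm2). Mki67, which encodes the proliferation marker Ki-67, had 14.2, with 25.7% against 1.80%. The kinase genes Plk1 and Ttk and the cytokinesis motor gene Kif20a had 61, 57 and 59 UMIs over all cells and were too low for the tests across types.

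**Figure D1:**
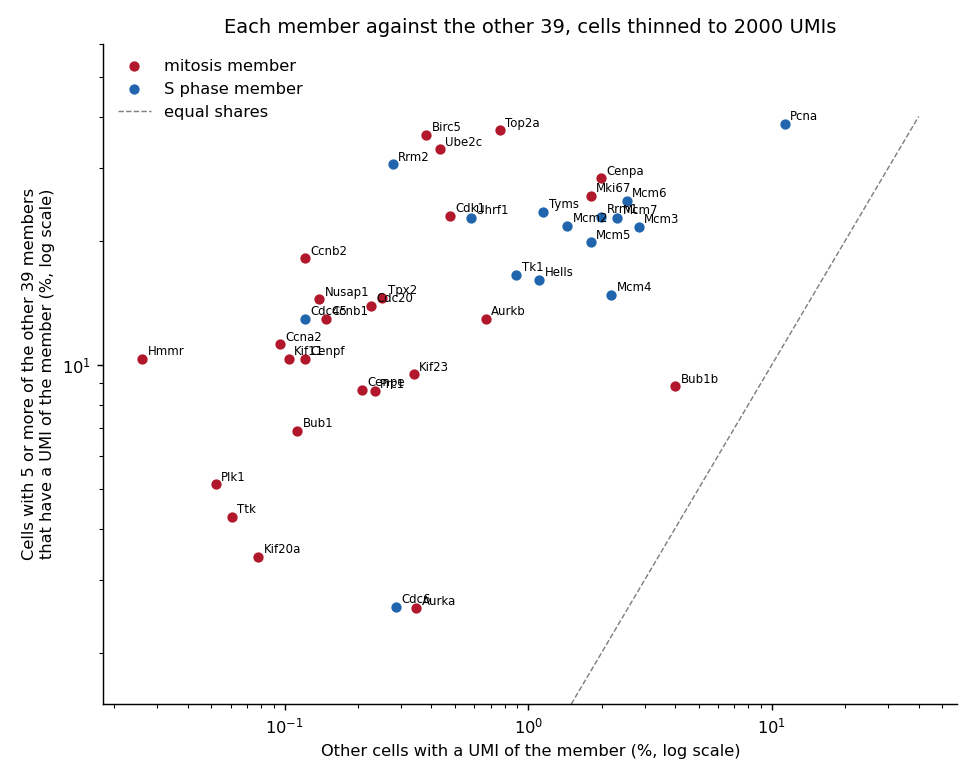
Share of cells with a UMI of each of the 40 genes (members) among cells that hold 5 or more of the other 39 genes (vertical axis, %) against the remaining cells (horizontal axis, %), both on log scales, at 2000 UMIs per cell. Every point lies above the line of equal shares, Hmmr farthest from it (10.3% against 0.0260%) and Bub1b nearest to it (8.85% against 4.01%).

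The share of cells with 5 or more of the genes was highest in cDC1 and B cells. cDC1 are the dendritic cells that express Xcr1 and Clec9a and present antigen to CD8 T cells. In them 11 of 190 thinned cells passed, 5.79% (2.93% to 10.1%), with 4.94%, 5%, 8.33% and 4.88% in the mice. All 4 mice lay above the other gated cells of the same mouse, by 4.74 points on average (SD 1.55, n = 4 mice; exact two-sided sign-flip p = 0.125, the smallest that 4 mice allow, and 0.325 adjusted over the 13 types). At 1000 UMIs per cell only 1 of 190 passed, 0.526%, and the difference turned to -0.291 points, whereas it was 6.78 points at 4000 UMIs.

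Among B cells 17 of 300 passed, 5.67% (3.34% to 8.92%), with 1.22%, 13.3%, 6.21% and 9.52% in the mice, where 13.3% is 2 of 15 cells. In 3 of 4 mice the B cells lay above the other gated cells, by 6.65 points on average over the 4 (SD 5.58; exact sign-flip p = 0.25, 0.542 adjusted). Unimmunized mouse 1 lay 0.331 points the other way. Medullary sinus macrophages (MSM), gated by Marco, Cd209b, Timd4 and related genes, line the sinuses through which lymph leaves the node. Of 371 MSM, 237 of them in unimmunized mouse 1, only 185 reached 2000 UMIs, so their share describes the deeper cells. Of these 7 of 185 passed, 3.78% (1.53% to 7.64%), 5 of 93 in unimmunized mouse 1 and 2 of 78 in immunized mouse 1, and none of the 8 and 6 cells of the other mice. Their difference from the other gated cells, 0.826 points, was smaller than the spread between mice (SD 2.38, n = 4; exact sign-flip p = 0.75), and it turned to -2.88 points at 4000 UMIs and to -1.77 points without thinning.

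Next stood Cd209a dendritic cells (6 of 303, 1.98%), gamma-delta T cells (3 of 181, 1.66%), natural killer (NK) cells (6 of 400, 1.5%), C1q macrophages (10 of 742, 1.35%) and alpha-beta T cells (14 of 1058, 1.32%), whose intervals overlap. C1q macrophages express the complement genes C1qa, C1qb and C1qc. Their 10 cells all came from immunized mice, 8 of 197 and 2 of 501, while the unimmunized mice held 30 and 14 C1q macrophages, for which a count of 0 allows shares of up to 10% and 21.4%.

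Monocytes held almost no such cells. None of 948 classical monocytes passed, which allows a share of up to 0.316%, and none of 464 migratory dendritic cells (up to 0.647%) or 302 inflammatory macrophages (up to 0.993%). Nonclassical monocytes, which patrol vessels, had 2 of 666 cells (0.3%) and interferon-high monocyte-derived cells 1 of 850 (0.118%). Classical monocytes, nonclassical monocytes, interferon-high cells and migratory dendritic cells were below the other gated cells in 4 of 4 mice, by 1.36, 1.12, 1.25 and 1.29 points (each exact sign-flip p = 0.125, 0.325 adjusted). Unimmunized mouse 2 held only 6, 39, 25 and 15 of these cells at 2000 UMIs. So few cells mostly give a count of 0 at any low share, which places them below the others, so the sign in that mouse carries little weight.

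**Figure D2:**
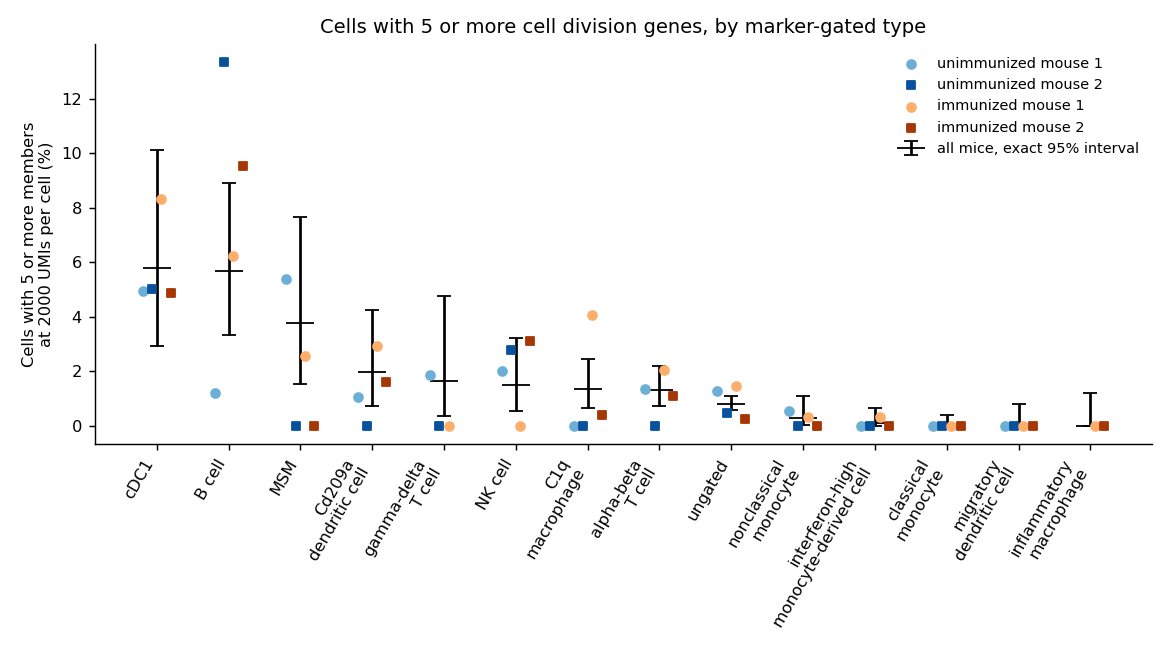
Percent of cells with 5 or more of the 40 genes after thinning to 2000 UMIs, per marker-gated type with at least 50 cells. Points are single mice with at least 5 cells of the type, and black marks give all mice with exact 95% intervals. cDC1 (5.79%) and B cells (5.67%) stand highest, and classical monocytes, migratory dendritic cells and inflammatory macrophages stand at 0.

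Summed levels, which need no thinning, put B cells first. Levels are in CPM, the UMIs of a gene relative to all UMIs of the summed cells. The 40 genes together reached 937 CPM in B cells, 537 in gamma-delta T cells, 533 in cDC1, 526 in NK cells, 496 in MSM and 414 in alpha-beta T cells. Of the 182 gamma-delta T cells 161 came from unimmunized mouse 1, with 599 of their 671 UMIs of the 40 genes, so their value is mostly that of 1 mouse. Classical monocytes were lowest at 152 CPM, and C1q macrophages, at 273, were close to all cells together, at 269. B cells had 861, 2832, 771 and 1243 CPM, the highest of the 13 types in every mouse. cDC1 had 518, 329, 605 and 559 CPM. The mitosis genes gave 503 of the 937 CPM in B cells but 148 of the 533 CPM in cDC1, where the S phase genes gave 385.

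**Figure D3:**
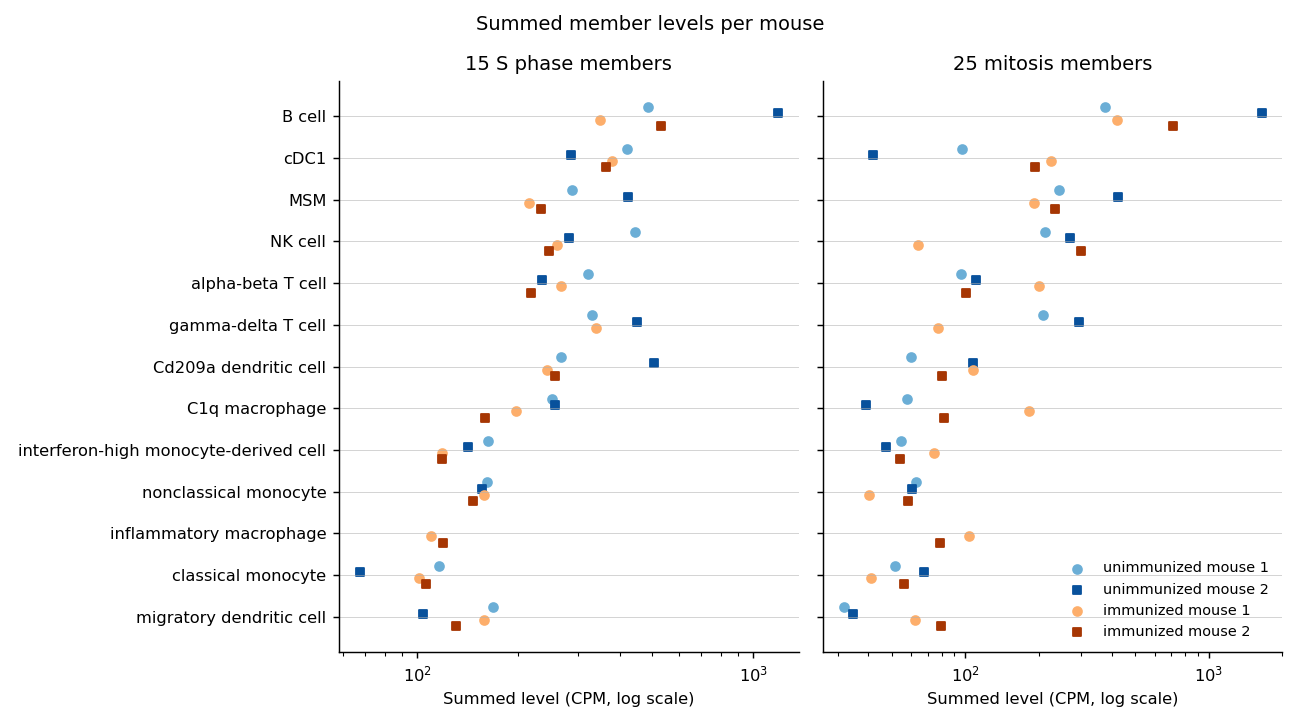
Summed level of the S phase genes and of the mitosis genes in CPM on log scales, with points for single mice and types of at least 5 cells. Of the 13 types, B cells have the highest mitosis sum in every mouse, with 1648 CPM in unimmunized mouse 2, and cDC1 have 287 to 421 CPM of S phase genes.

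To test single genes, each type was compared with the mean of the other types, all weighted alike, by edgeR's quasi-likelihood test on UMIs summed per mouse and type, adjusted by Benjamini-Hochberg over 11839 genes at 0.05. Of the 40 genes 37 passed the filter on low counts, 22 of mitosis and 15 of S phase. All values below are log2 differences from this fit unless given in CPM. In B cells 35 of 37 genes were higher and 0 lower, against 13.9% of all genes called higher, with a median of 3.03 against -0.01 over all genes. The median was 3.97 over the mitosis genes and 1.82 over the S phase genes. The genes not called were Aurka (SE 0.95 around 1.0) and Bub1b (0.32, SE 0.68).

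Ccnb1, a cyclin gene of mitotic entry, had the largest difference of the 37 genes in B cells. It was at 7.24, 139, 14.6 and 17.0 CPM, against 1.12 CPM over all cells (5.13, SE 0.57, edgeR adjusted p = 7.47e-09). Unimmunized mouse 2, with 15 B cells and 12 Ccnb1 UMIs, was far above the others, and without it the difference was 3.88 (edgeR adjusted p = 0.00327). Ccna2 (4.81), Ccnb2 (4.57) and Cdk1 (3.08) were higher too, as was the chromosomal kinase gene Aurkb (2.17). Top2a, whose enzyme untangles the copied chromosomes, was at 62.7, 197, 32.7 and 82.3 CPM (3.62, SE 0.40, edgeR adjusted p = 1.99e-09), each mouse above the 7.16 CPM of all cells.

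Genes of the spindle checkpoint and anaphase were higher as well. Bub1 (4.97) and Cdc20 (4.51) were higher, and Ube2c was at 19.3, 139, 66.8 and 73.8 CPM (4.23, SE 0.60), against 4.81 CPM over all cells. Of the centromere and kinetochore genes, Cenpf (4.48), Birc5 (4.00), Cenpe (3.95) and Cenpa (2.09) were higher, Cenpa by least. Of the spindle and cytokinesis genes, Nusap1 (4.70), Hmmr (4.20), Kif11 (4.07), Tpx2 (3.93), Prc1 (3.86) and Kif23 (2.73) were higher. Mki67 was at 48.2, 162, 29.2 and 65.3 CPM (2.95, SE 0.36).

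The S phase genes differed less in B cells. Rrm2, the regulated subunit of ribonucleotide reductase, led with 4.02 (SE 0.62), and Uhrf1, which carries DNA methylation through replication, followed with 3.39 (SE 0.40), at 38.6, 92.8, 20.9 and 28.4 CPM. The helicase genes lay between 0.98 (Mcm4) and 1.92 (Mcm2), with Mcm3 at 1.06, Mcm7 at 1.34, Mcm6 at 1.36 and Mcm5 at 1.74. Cdc45 (3.03), Tyms (2.37), Cdc6 (2.00), Hells (1.83), Tk1 (1.82) and Rrm1 (1.66) stood between. Pcna had the smallest called difference, 0.53 (SE 0.17, edgeR adjusted p = 0.0224), at 111, 360, 53.6 and 93.7 CPM, of which immunized mouse 1 lay below the 65.4 CPM of all cells.

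Other genes of the same processes, from fixed lists, were higher in B cells too. Of all 11839 genes, 1650 (13.9%) were called higher and 961 lower in B cells. Of 36 other S phase genes tested 20 were higher and 0 lower, among them Pold1 (2.81), a replicative polymerase subunit, and Dut (2.07). Of 40 other G2 and mitosis genes 34 were higher, such as Nek2 (5.57), Cdca3 (4.50) and Kif15 (4.21), and H2afz was lower (-0.62). Of 7 genes of a G1 list, the kinase genes Cdk2 (1.12) and Cdk4 (0.64) and the transcription factor gene Myc (0.98) were higher. The cyclin gene Ccnd3 was lower (-0.61).

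In cDC1 15 of 37 genes were higher and 0 lower, against 12.7% of all genes called higher, with a median of 1.30 against 0.09 over all genes. S phase genes made up 12 of the 15, but the median was 1.37 over the S phase genes and 1.19 over the mitosis genes, so the 2 groups differed little in size. Hells, a chromatin remodeler needed for DNA methylation, was at 41.4, 31.5, 36.8 and 19.4 CPM (1.93, SE 0.28, edgeR adjusted p = 6.36e-07), each mouse above the 7.47 CPM of all cells. Mcm2 (1.57), Mcm5 (1.43), Mcm3 (1.37), Mcm6 (1.30), Mcm4 (1.08) and Mcm7 (0.90) were called, so the whole helicase was. Cdc45 (2.40), Rrm2 (2.17), Uhrf1 (1.87), Tyms (1.19) and Pcna (0.46) completed the S phase calls. The mitosis calls were Tpx2 (2.17), Kif23 (1.92) and Cdk1 (1.90). DESeq2 called 5 of the genes. Without unimmunized mouse 1, which gave 81 of the 190 cells, edgeR called fewer, in a fit that leaves 1 unimmunized mouse. No share of all genes is given for either fit. Of the fixed lists 13 of 36 other S phase and 11 of 40 other G2 and mitosis genes were higher. Ccnd1, a G1 cyclin gene, was higher (2.33) while Ccnd2 was lower (-1.56), as were 399 of all 11839 genes.

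**Figure D4:**
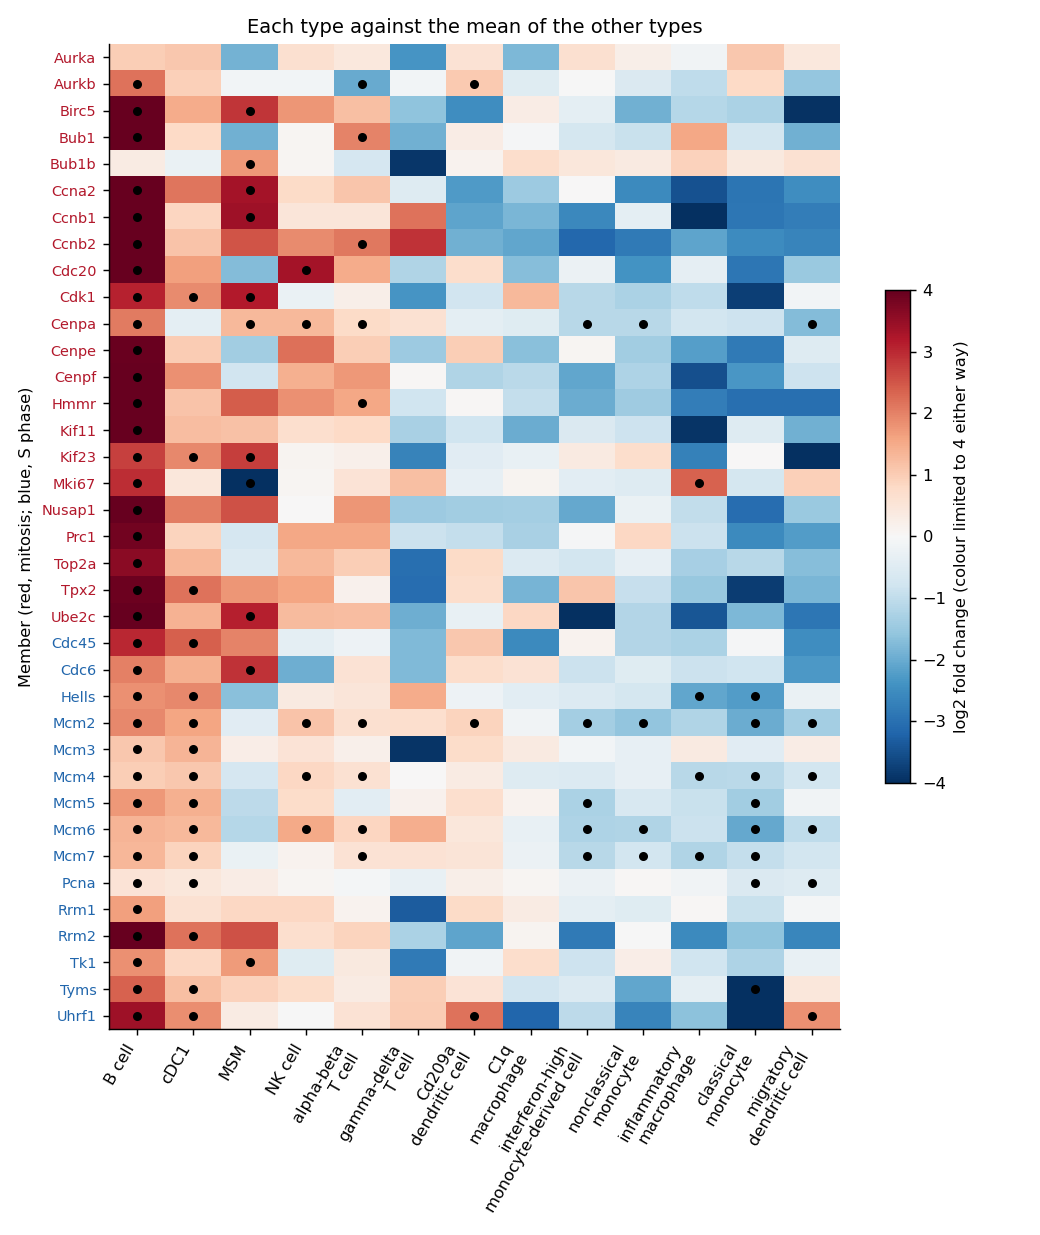
Log2 difference of each gene in each type against the mean of the other types, red for higher and blue for lower, with colours limited to 4 in either direction and a dot where the edgeR adjusted p is under 0.05. B cells have 35 dots, cDC1 have 15 of which 12 are S phase genes, and classical monocytes have 8, all lower S phase genes.

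MSM had 10 genes higher and 1 lower, against 13.8% and 11.5% of all genes, with a median of 0.83 against -0.19 over all genes. Mitosis genes made up 8 of the 10: Ccnb1 (3.40), Ccna2 (3.34), Cdk1 (3.18), Ube2c (3.11), Birc5 (2.87), Kif23 (2.77), Bub1b (1.72) and Cenpa (1.29). The S phase genes were Cdc6 (2.89) and Tk1 (1.70). These rest on few UMIs, since unimmunized mouse 2 and immunized mouse 2 gave 17 and 11 MSM. Ube2c had 22, 1, 8 and 1 UMIs (39.2, 24.9, 21.5 and 38.9 CPM) and Cdk1 had 11, 4, 9 and 0.

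Mki67 went the other way in MSM, with 2 UMIs among 998297, or 2.00 CPM against 14.0 CPM over all cells (-4.35, SE 1.65, edgeR adjusted p = 0.0475). Both UMIs were in unimmunized mouse 1, so the fitted size is no bound. Under a gate of 4 markers 1 gene was called higher in MSM. Fewer genes were also called without unimmunized mouse 1 or immunized mouse 1, in fits that leave 1 mouse in a condition. No share of all genes is given for these alternatives. Of 12 cell cycle inhibitors tested, Cdkn2a (3.33, SE 0.42) and Cdkn2b (2.01, SE 0.76) were higher in MSM and 6 were lower, with Btg2 (-1.98), Btg1 (-1.55) and Cdkn1b (-1.27) among them. In the 7 MSM with 5 or more of the 40 genes, Ube2c was in 6, Cdk1 in 5 and Birc5 in 4. All 7 held Marco, Cd209b and Timd4 UMIs, and none held 3 or more markers of B, T or NK cells. Dendritic cell markers were not counted for this. The 7 cells had a median depth of 2904 UMIs, against 2946.5 in the other MSM, at which markers of another cell can be missed.

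In alpha-beta T and NK cells the share of the 37 genes called higher was near that of all genes. These calls are therefore not read as a result about the 37 genes. The median was 0.58 against 0.17 over all genes in alpha-beta T cells and 0.67 against 0.09 in NK cells. In alpha-beta T cells 8 genes were higher and 1 lower, against 24.6% and 9.6% of all genes. The higher genes were Mcm6 (0.85), Mcm2 (0.65), Mcm4 (0.62), Mcm7 (0.58), Cenpa (0.76), Ccnb2 (2.12), Bub1 (1.99) and Hmmr (1.54), and Aurkb was lower (-2.02). Without immunized mouse 1, Bub1 and Hmmr were at -0.45 and -0.41. In NK cells 5 genes were higher, against 14.3% of all genes: Cdc20 (3.33), Mcm6 (1.51), Cenpa (1.30), Mcm2 (1.16) and Mcm4 (0.83). Mcm6 in NK cells was at 55.0, 18.9, 50.9 and 62.5 CPM (SE 0.23, edgeR adjusted p = 1.96e-06), against 13.2 CPM over all cells.

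Cd209a dendritic cells had 3 genes higher, against 9.6% of all genes: Uhrf1 (2.17), Aurkb (1.06) and Mcm2 (0.90). Uhrf1 was at 9.37, 75.2, 14.5 and 11.4 CPM in them, with 7 UMIs behind the value of unimmunized mouse 2. C1q macrophages and gamma-delta T cells had no call by edgeR among the 37 genes. The median was -0.48 against 0.08 over all genes in C1q macrophages and -1.20 against -0.40 in gamma-delta T cells. Of all 11839 genes, 1061 were called higher and 209 lower in C1q macrophages, and 603 and 705 in gamma-delta T cells. At an unadjusted edgeR p under 0.05 the 2 types had 0 and 2 of the 37 genes, and DESeq2 called 0 and 1. No share of all genes is given for these last counts.

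In monocytes and the cells related to them, the genes called lower were mostly replication genes. In classical monocytes 8 of 37 genes were lower, against 2.53% of all genes, and all 8 were S phase genes. The median was -1.38 against 0.07 over all genes. It was -2.06 over the mitosis genes and -1.22 over the S phase genes, so the calls do not show that S phase genes were lower than mitosis genes. Mcm6 was at 5.53, 0, 3.81 and 4.44 CPM, against 13.2 CPM over all cells (-2.05, SE 0.39, edgeR adjusted p = 0.000139), and the value of 0 comes from 6 cells and allows up to 40.4 CPM. Tyms (-4.13, with no UMI in either unimmunized mouse), Hells (-2.24), Mcm2 (-1.99), Mcm5 (-1.38), Mcm4 (-1.06), Mcm7 (-0.96) and Pcna (-0.59) were the others. DESeq2 also called 8, but edgeR called fewer or none without unimmunized mouse 1 or immunized mouse 1. Those fits leave 1 mouse in a condition, and no share of all genes is given for these alternatives.

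Interferon-high cells had 5 of 37 genes lower, against 2.21% of all genes: Mcm2 (-1.38), Mcm5 (-1.26), Mcm6 (-1.23), Mcm7 (-1.11) and Cenpa (-1.11). Nonclassical monocytes had 4 lower, against 3.13% of all genes: Mcm2 (-1.56), Mcm6 (-1.19), Cenpa (-1.11) and Mcm7 (-0.75). Migratory dendritic cells had 5 lower, against 7.4% of all genes: Cenpa (-1.74), Mcm2 (-1.35), Mcm6, Mcm4 (-0.75) and Pcna (-0.51). Their 1 higher gene, against 18.9% of all genes, was Uhrf1 (1.83). In these 3 types fewer or no lower calls were made without unimmunized mouse 1 or immunized mouse 1, in fits that leave 1 mouse in a condition. No share of all genes is given for those fits, so the fall is not read as particular to these genes.

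In inflammatory macrophages, which express the nitric oxide synthase gene Nos2 and were compared in the immunized mice alone, Mki67 parted from the other mitosis genes. Mki67 was at 73.1 CPM in immunized mouse 1 (16 cells) and 38.1 CPM in immunized mouse 2 (288 cells), with a difference of 2.36 (SE 0.43, edgeR adjusted p = 7.46e-05). It was the 1 gene of 37 called higher, against 10.5% of all genes. At the thinned depth 7.28% of these cells had a Mki67 UMI, against 2.03% of all cells, while 0 of 302 had 5 or more of the 40 genes. Without thinning 33 of 305 did (10.8%), at a median depth of 15656 UMIs. Hells (-2.09), Mcm7 (-1.20) and Mcm4 (-1.10) were lower, 3 of 37 against 2.27% of all genes.

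Immunization moved none of the 40 genes past the threshold. Over all cells the share with 5 or more genes was 1.47%, 0.982%, 1.47% and 0.363%, a difference of -0.306 points between the immunized and the unimmunized mice (exact two-sided permutation p = 1, where 2 against 2 mice can give no less than 0.333). The conditions overlapped. Without thinning the shares were 6.40%, 4.66%, 5.58% and 8.13%, and the difference turned to 1.33 points in favour of the deeper immunized mice.

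The summed level over all cells was 394, 355, 271 and 223 CPM, so that both immunized mice lay below both unimmunized mice. None of the 40 genes was called by edgeR, against 0% of 13596 genes, and DESeq2 called 0 too. At an unadjusted edgeR p under 0.05 stood 7 genes, Mcm2, Mcm4, Mcm5, Mcm6, Mcm7, Cenpa and Rrm1, all with lower values in the immunized mice. The share of all genes at this unadjusted limit is not given. The 7 genes are therefore not read as more than other genes would show. Rrm1 was at 16.4, 15.2, 8.41 and 8.07 CPM and had the smallest adjusted p, 0.107 by edgeR (-0.68, SE 0.15). Over the 40 genes the median difference was -0.63, against -0.02 over all genes. Mki67 and Bub1b stood on the other side at 0.71 each. Without immunized mouse 1 some of the 40 genes were called, in a fit that leaves 1 immunized mouse. No share of all genes is given for that fit, so those calls are not read as a result. The gates took 71.0%, 58.3%, 57.8% and 47.2% of the cells, and the mix of types differed between the mice. Alpha-beta T cells were 667, 108, 199 and 93 of the 2828, 537, 4052 and 4722 cells, and classical monocytes 57, 6, 493 and 396. Their summed levels over all mice were 414 and 152 CPM. The part of this mix in the summed level was not tested. A change in which cells were sorted and a change in RNA per cell cannot be told apart in the sums over all cells.

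Within types, none of the 37 genes was called in any of the 11 types with both conditions replicated, by edgeR or DESeq2, and 0 to 5 genes a type had an unadjusted edgeR p under 0.05. Few genes of any kind were called: 0.00845% in B cells, 0.38% in C1q macrophages, 0.00845% in Cd209a dendritic cells, 0.313% in alpha-beta T cells, 0.0338% in classical monocytes, 0.574% in interferon-high cells, 0% in MSM, 1.17% in migratory dendritic cells, 0% in NK cells, 0.076% in nonclassical monocytes and 0.304% in cDC1. Leaving out immunized mouse 1 or immunized mouse 2 gave a few calls over all types, in fits with 1 immunized mouse.

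C1q macrophages had the widest gap in the share of cells with 5 or more genes. It was 0%, 0%, 4.06% and 0.399%, or 2.23 points higher with immunization (exact permutation p = 0.333, the smallest possible, and 1 adjusted over the 11 types). Their mitosis genes summed to 57.5, 39, 182 and 81.9 CPM, and their S phase genes to 252, 257, 196 and 159 CPM. The conditions did not overlap in either sum, with the mitosis genes higher and the S phase genes lower in the immunized mice, and the sums were not tested. The mitosis sums of the unimmunized mice rest on 16 and 5 UMIs in 44 and 15 cells. A split of 2 against 2 mice is common without any difference, as 0.333 is their smallest exact permutation p.

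The types that a gene set apart differed between genes. Over the 13 types Mcm2 was higher in 5 and lower in 4, Mcm6 in 4 and 4, Cenpa in 4 and 3, and Mcm4 in 4 and 3. Each type was set against the mean of the others, so a gene higher in some types lies lower in others by construction. No share of all genes is given for these counts. Uhrf1 was higher in 4 types and lower in none. Top2a, Cenpe, Cenpf, Kif11, Nusap1, Prc1 and Rrm1 were called in B cells and in no other type, and Aurka in none. That a call was made in 1 type and not in another was not tested as a difference between the types.

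The gates need 3 of their markers, so the markers are no independent check of the cells with 5 or more of the genes, and their shares are given as a description. Of the 17 B cells 16 had Cd79a, a chain of the B cell receptor complex, and 16 had Ms4a1 (CD20) at 2000 UMIs, against 97.9% and 88.0% of the other B cells. Ebf1, a transcription factor of B cells, was in 8 of 17 (47.1%, exact interval 23.0% to 72.2%) against 83.7% of the others. Of the 11 cDC1, Wdfy4 was in 7 and Cadm1 in 4 at that depth, against 46.9% and 36.3% of the other cDC1. Xcr1 and Clec9a were in 3 each (27.3%, exact interval 6.02% to 61.0%), against 53.1% and 40.8% of the others, values that the interval includes.

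The phase of the genes held differed between types by count alone, with no test. In the 17 B cells with 5 or more genes the median was 5 mitosis and 2 S phase genes, and 12 held more mitosis than S phase genes. Top2a and Cenpa were each in 10 of them and Mki67 in 8. In the 11 cDC1 the median was 2 mitosis and 5 S phase genes, with Pcna in 7, Birc5 in 6 and Mcm6 and Rrm2 in 5. At least 3 markers of a second lineage were in 3 of the 17 and 4 of the 11. Without all cells of that kind the differences from the other gated cells were 6.66 and 5.21 points.

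Some B cells with 5 or more of the genes also held germinal center genes. They were deeper than the other B cells (median 11814 against 4467 UMIs), so shares are given at 2000 UMIs, as a description over cells. Mef2b, a transcription factor of germinal center B cells, was in 4 of 17 (23.5%, exact interval 6.81% to 49.9%) against 10 of 283 (3.53%). Rgs13, a regulator of G protein signaling, was in 4 of 17 against 3 of 283 (1.06%). Neither was in any of 948 classical monocytes, which should lack them. Fas was in 3 of 17 and 14 of 283, Gcsam in 1 and 2, S1pr2 in 1 and 10, and Bcl6 in 1 and 12, all with overlapping intervals. Fas, S1pr2 and Bcl6 were also in 10.5%, 7.49% and 4.96% of classical monocytes, so they do not mark B cells here. At least 1 gene of the fixed germinal center list was in 7 of 17 (41.2%, exact interval 18.4% to 67.1%). The other B cells stood at 14.1% (10.3% to 18.7%), an overlapping interval, and classical monocytes at 21.1%. By mouse it was 1 of 1, 1 of 2, 4 of 10 and 1 of 4 cells.

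**Figure D5:**
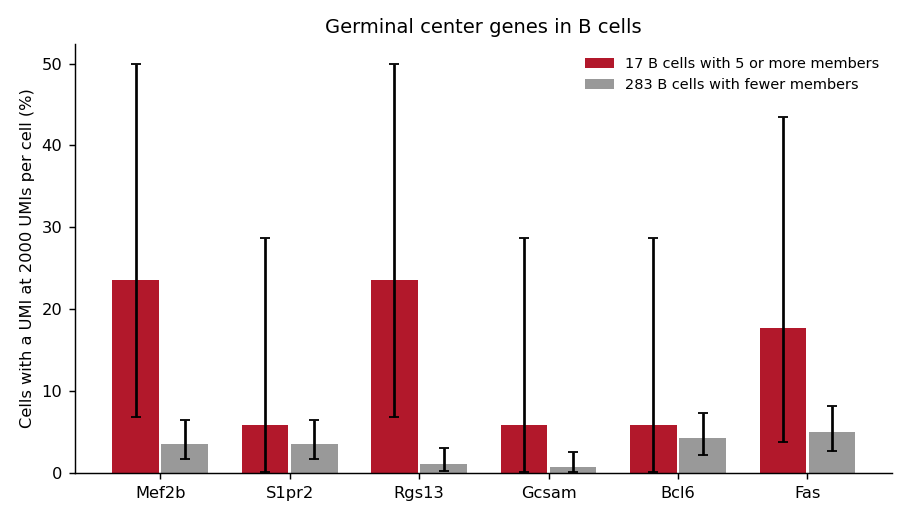
Percent of B cells with a UMI of each germinal center gene at 2000 UMIs per cell, for 17 cells with 5 or more of the 40 genes and 283 with fewer, with exact 95% intervals. Mef2b and Rgs13 stand apart (23.5% each against 3.53% and 1.06%), and the intervals of the other 4 genes overlap.

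In the 10 C1q macrophages with 5 or more genes, Top2a, Cdk1, Birc5, Ube2c, Pcna and Tyms were each in 4, and before thinning C1qa was in 9 and C1qb and C1qc in all 10. At the thinned depth Cd5l, a scavenger protein of tissue macrophages, was in 4 of 10 against 16 of 732 other C1q macrophages (40%, exact interval 12.2% to 73.8%, against 2.19%), and Marco was in 2 of 10 against 24 of 732. Cd209b, Cd209f, Cd209g and Timd4 were in none of the 10. All of these genes, with Cd5l and Marco, are markers of the MSM gate. Some of the 10 cells thus held MSM markers beside those of C1q macrophages. Mertk, a receptor for apoptotic cells, was in none of the 10 and in 10.1% of the others, a gap that 10 cells cannot resolve (upper exact limit 30.8%). Other markers of the C1q gate went both ways at that depth. Axl was in 5 of 10 against 27.5%, Ccl7 in 3 against 3.69% and Ccl12 in 2 against 10.8%. Pf4 and C3ar1 were in 1 each, against 6.01% and 9.97%. Ms4a7 was in 2 against 24.6%, and Itga9, Stab1 and Tmem37 were in none, against 6.42%, 3.69% and 5.33%. The 10 cells had a median of 5578.5 UMIs, against 13678 in the others.

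Of the genes of the sort, Itgam, which encodes CD11b, was less frequent in the 117 cells with 5 or more genes. At the thinned depth it was in 9 of 117 (7.69%, 3.58% to 14.1%) against 17.9% of the other cells. Siglec1 was in 2 of 117 (1.71%, 0.208% to 6.04%) against 3.56%, and Tomato in 0 of 117 (upper exact limit 3.10%) against 1.04%, differences that 117 cells cannot resolve. The 117 cells and the others differ in their mix of types, which these shares leave in. Within types Itgam was in 3 of 10 against 22.5% in C1q macrophages and 2 of 6 against 21.1% in NK cells. It was in 1 of 6 against 17.2% in Cd209a dendritic cells and 2 of 40 against 18.5% in ungated cells. In B cells Itgam was in 0 of 17 and 3 of 283, in cDC1 in 0 of 11 and 9 of 179. In MSM it was in 0 of 7 and 17 of 178, and in alpha-beta T cells in 0 of 14 and 19 of 1044. Of the 117 cells 40 passed no gate. Among these, 6 held 3 or more C1q macrophage markers (15%, against 14.6% of the other ungated cells), 1 held 3 or more classical monocyte markers (2.5% against 24.7%), and none held 3 or more markers of B, T or NK cells. The other ungated cells rarely did either, 0.0402% for B, 1.59% for alpha-beta T, 0.261% for gamma-delta T and 0% for NK cells. A gate needs 3 markers, so few such cells could be left ungated.

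Genes outside the 40 differed between the cells with 5 or more of them and the other cells of the same type. UMIs were summed per mouse for both kinds of cell, in mice with at least 2 cells of each, for the types with 3 such mice. These were B cells and cDC1, with 12 libraries, and 1092 genes passed the filter. The 40 genes chose the cells and are not tested here. Of the other S phase and G2 and mitosis genes only 7 passed the filter, which a gene can pass through the cells where it is high, so their count is a description. All 7 were higher, against 7.78% of all genes: Stmn1 (4.48, SE 0.24, edgeR adjusted p = 7.94e-09), Smc2 (3.47), Cks1b (3.04), Hmgb2 (2.93), Dut (2.27), H2afz (1.86) and Slbp (1.10). Stmn1 acts in microtubule turnover, Smc2 in chromosome condensation, Dut in nucleotide supply and Slbp on histone mRNA. Btg1, an antiproliferative gene, was lower (-0.99, SE 0.24, edgeR adjusted p = 0.0124). With mouse and type as replicate block 6 of the 7 were called.

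Because the cells were chosen for holding division and replication genes, other genes expressed together with these are higher by that choice. Such genes can also pass the filter through the chosen cells alone. The differences here and those of the list genes above are thus a description of the chosen cells, and their p-values are no independent test. Beyond the lists, Pclaf, the PCNA clamp associated factor, differed most, by 5.41 (SE 0.40, edgeR adjusted p = 2.85e-07). Tuba1b (2.39), Hmgn2 (2.26), H2afv (1.93), Ube2s (1.92), Tubb5 (1.91), Dnajc9 (1.71), Ran (1.57), Selenoh (1.57) and Alyref (1.52) were higher as well. They include tubulins, histone and chromatin genes, and Ube2s, an enzyme of the anaphase-promoting complex. Lower were Ifitm2 (-2.62), Ifitm3 (-2.29), S100a4 (-2.15), Txnip (-1.94), Ogt (-1.94), Lyz1 (-1.94), Malat1 (-1.89), Mycbp2 (-1.82), S100a6 (-1.82) and Pnisr (-1.59). The interferon-induced Ifitm2 and Ifitm3, the calcium-binding S100a4 and S100a6 and the lysozyme gene Lyz1 are abundant in myeloid cells.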

How the data were processed

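The authors made the deposited gene matrix of UMI counts, and the hashtag counts, per the labels from 10X 3′ libraries with Cell Ranger 4.0.0 on mm10. The matrix joins both captures, and no source used here says whether their depth was equalized. Since hashtag barcodes do not name the capture, 621 sequences that both captures held (1242 of 18662 barcodes) were removed, then 1420 barcodes over 25% mitochondrial UMIs. A cell was given to a mouse when 1 hashtag held at least 80% of its hashtag counts and at least 10 counts. The antibody tag counts were not used here. Total depth was 123764631 UMIs in 12139 cells.

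A type gate needed 3 markers, a mean z score over 0.5 (z limited to 5) and a lead of 0.25 over the next type. Cells were thinned to 2000 UMIs with a fixed seed. Scrublet in scanpy 1.11.5 called 1101 barcodes of 1 capture and 0 of the other at its own threshold, which has not worked, so no doublet call was used in the main results, and 443 cells with 3 or more markers of a second lineage were left out as an alternative. UMIs were summed per mouse and type (49 libraries of at least 5 cells, from 25697 to 7311111 UMIs) and tested with edgeR 4.0.16 (quasi-likelihood, TMM, filterByExpr) in R 4.3.3, with DESeq2 1.42.0 as an alternative, HTODemux of Seurat 5.3.0 as another hashtag rule, and the other alternatives given in the closing section. Shares were tested over mice by exact permutation and sign-flip tests (scipy 1.17.1), since cells are not replicates. The fits were tested on simulated data. Libraries of different types come from the same 4 mice, and a fit with mouse as replicate block was an alternative. The genes and lists were chosen with earlier results of these data known. Some genes of the fixed lists are not reported here. All 40 genes were named by role. Beyond them the text names genes of fixed lists and, for the cells with 5 or more of the genes, the 10 of largest difference in each direction past an adjusted p of 0.05 at a mean log2 CPM of at least 4 that no list holds.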

Additional observations from a re-analysis of the deposited data

Results flagged for a closer look

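In 5 of the 11 types with both conditions replicated, the summed level of the 40 genes in both immunized mice lay on the same side of both unimmunized mice. The sides differed between types, and in the other types the conditions overlapped. Such a split of 2 against 2 mice is common without any difference, since their smallest exact permutation p is 0.333. The difference between types was not tested. In MSM the mean was 437 CPM in immunized and 689 CPM in unimmunized mice, a log2 ratio of -0.657. In NK cells it was 435 against 605 CPM (-0.475) and in nonclassical monocytes 201 against 220 CPM (-0.132). It was higher in cDC1, with 582 against 423 CPM (0.46), and in migratory dendritic cells, with 215 against 169 CPM (0.348). The closest mice of the conditions, immunized first, were at 467 and 531 CPM in MSM and at 546 and 553 CPM in NK cells. They were at 204 and 216 CPM in nonclassical monocytes, 559 and 518 CPM in cDC1 and 210 and 199 CPM in migratory dendritic cells. The 467 CPM of MSM in immunized mouse 2 rest on 12 UMIs in 11 cells. Of the unimmunized libraries of mouse 2, those of MSM, cDC1 and migratory dendritic cells held 17, 20 and 15 cells.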

How the results depend on the processing

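Differences in the share of cells with 5 or more genes kept their direction in 233 alternative values and reversed in 30. Type against the other gated cells, in points, these changed sign. At 1000 UMIs Cd209a dendritic cells were at -0.00134 and cDC1 at -0.291. At 4000 UMIs MSM were at -2.88, gamma-delta T cells at 1.59 and alpha-beta T cells at 0.495. Without thinning MSM were at -1.77, C1q macrophages at 1.58, inflammatory macrophages at 1.22, gamma-delta T cells at 10.6, and the immunization difference over all cells at 1.33. With 3 genes needed C1q macrophages were at 0.309 and gamma-delta T cells at 8.91, and with 8 Cd209a cells at -0.450. From mitosis genes alone C1q macrophages were at 0.0118 and Cd209a cells at -0.339, and from S phase genes alone MSM were at -0.178 and NK cells at -0.352. Under HTODemux Cd209a cells were at -0.0649. In the capture of barcode ending 1 the immunization difference was 0.323, C1q macrophages 0.230, gamma-delta T cells 0.330 and alpha-beta T cells 0.402. With a gate of 4 markers C1q macrophages were at 0.734. Leaving out each mouse gave -0.862 to 0.249 for immunization, -0.248 to 1.55 for MSM, -1.03 to 0.434 for C1q macrophages, -0.244 to 0.717 for Cd209a cells and -0.579 to 0.317 for alpha-beta T cells. The causes were not tested.

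Calls among the 37 genes over all types numbered 105, and 107 with mouse as replicate block (9 in alpha-beta T cells, 16 in cDC1 and no change in the other counts of calls by type). For the cells with 5 or more genes against the others, mouse and type as replicate block gave 6 of 7. Without a filter on low counts immunization gave 2 calls over all cells and 5 within types, NK cells 9, and the cells with 5 or more genes 65 list genes, since more genes were tested. DESeq2 gave 2 in alpha-beta T cells, 3 in NK cells, 5 in cDC1 and 62 list genes. HTODemux gave 3 lower in interferon-high cells, 3 lower in migratory dendritic cells and 3 in NK cells. A gate of 4 markers gave 1 in MSM, 1 lower in migratory dendritic cells and 2 lower in nonclassical monocytes, with Kif23 at -1.51 and Cdc6 at -0.0337 in MSM. Without second-lineage cells migratory dendritic cells had 3 lower and NK cells 8 higher.

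Leaving out each mouse gave 47 to 100 calls over all types, 0 to 18 for immunization over all cells and 0 to 3 within types. By type it gave 2 to 12 in alpha-beta T cells, 0 to 7 in classical monocytes, 0 to 5 in interferon-high cells, 1 to 12 in MSM, 0 to 4 in migratory dendritic cells, 3 to 11 in NK cells, 0 to 5 in nonclassical monocytes and 4 to 16 in cDC1, and 3 to 11 list genes in the cells with 5 or more genes. B cells had 27 to 32. Single genes that changed sign ranged from -0.45 to 2.65 (Bub1) and -0.41 to 1.80 (Hmmr) in alpha-beta T cells, -1.28 to 1.52 (Aurkb) in Cd209a cells, -1.17 to 0.35 (Mcm7) in classical monocytes, -1.35 to 0.27 (Mcm6) in interferon-high cells and -2.01 to 0.25 (Mcm2) in nonclassical monocytes. In MSM they were Cenpa (-2.79 to 1.64), Kif23 (-0.70 to 4.18), Cdk1 (-0.43 to 5.18), Cdc6 (-0.76 to 5.65) and Tk1 (-1.49 to 3.60). With 8 genes needed the comparison of cells could not be fitted, since no type had 3 mice with at least 2 cells of both kinds. Libraries of unimmunized mouse 2 held as few as 6 cells, and the part of depth in the number of calls within types was not tested. No share of all genes is given for the alternative fits of this section. A changed count of calls is therefore not read as particular to these genes.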
